A study of Saccharomyces cerevisiae with 9 samples.

Results

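Gene expression in SoyGC-treated yeast was compared with that in vehicle-treated yeast. The comparison takes the 3 samples labelled SoyGC-treated and the 3 labelled vehicle control, 6 of the 9 samples of the series, and it covers every gene that the arrays measured. The members were chosen by their labels alone, and no measured value entered the choice. All samples were Saccharomyces cerevisiae BY4743, a diploid laboratory strain of budding yeast. SoyGC-treated cells had received GC of soybean at 40 ug/ml for 17 h, the other treated group (HenGC-treated, 3 samples) had received GC of hen of the woods, an edible mushroom, at the same dose and time, and for the vehicle control the descriptions give neither agent, dose nor time. GC is not spelled out there either. In this field the letters commonly stand for glucosylceramide, a ceramide that carries 1 glucose, and sphingolipids are what the title of the series names. Whether the numbered samples of a group came from separate cultures is not stated, and the spread behind the p-values may then be technical only.

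Sphingolipids are membrane lipids built on a long-chain base. Budding yeast joins that base to a very long chain fatty acid to make ceramide, and adds inositol phosphate and mannose to it, while plants and many other fungi attach glucose and so make glucosylceramide. In yeast, long-chain bases and ceramides also act in signalling at the plasma membrane. Yeast adjusts its transcriptome to food and growth as a whole. Glucose represses genes for the use of lactate, acetate and fatty acids, good nitrogen sources repress permeases and enzymes for poor ones (nitrogen catabolite repression), low oxygen induces genes for sterol uptake and special wall proteins, and fast growth goes with high expression of the factors that assemble ribosomes.

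Each sample was hybridised to 1 Agilent array, read in 1 colour. On every array 92.4% to 95.8% of 43792 spots lay well above background, 0 spots were saturated, and the 75th percentile of the signal was between 5273 and 7803. A gene's value is given here as a scaled signal, its intensity after each array's 75th percentile was set to 1000. It compares samples for 1 gene and not 1 gene with another. In bulk RNA such as this, less RNA per cell and fewer cells that use a gene cannot be told apart. The marker genes deleted in this strain family, HIS3, LEU2 and URA3, lay well above background on 0 of 9 arrays. Genes that haploid cells use for mating gave weak signals, as in STE2 with 24.7, 20.3 and 18.7 in SoyGC-treated and 22.4, 21.6 and 24.2 in vehicle control. SoyGC-treated 1 and 2 shared slide 1 with vehicle control 1 and 2, and replicate 3 of each group lay on slide 3, which was scanned on another day. Vehicle control 3 stood apart: a first principal component that took up 56.3% of the variance put it at 41.7 and the other 8 arrays between -14.6 and 3.65. Counts of genes are therefore also given without it, and with slide as a fixed block.

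Of 5820 genes tested in limma's linear model, 538 (9.24%) passed a Benjamini-Hochberg adjusted p of 0.05, 193 higher (3.32%) and 345 lower (5.93%) in SoyGC-treated cells. Differences below are log2 differences, SoyGC-treated minus vehicle control, with standard errors (SE, n = 3 per group). The SE rests on a spread estimated over all 9 arrays, HenGC-treated included. It is therefore not the spread of the SoyGC-treated and vehicle arrays alone. The median difference over all genes was 0.00. The genes that passed had a median of 0.63 among those higher and -0.60 among those lower, and 58 (0.997%) differed at least 2-fold, 21 higher and 37 lower. Within slide 1 the same medians were 0.57 and -0.48, and within slide 3 they were 0.71 and -0.86. The genes had been picked and split by direction on these same arrays, so that the signs were largely set by the choice. The 3 arrays of one group lay wholly above or below the 3 of the other at 1989 genes (34.2%), 794 higher (13.6%) and 1195 lower (20.5%). After quantile normalization 387 genes passed, with 186 higher and 201 lower. Members of a gene family were each counted in the 345. Examples are ASP3-1, ASP3-2, ASP3-3 and ASP3-4 (-0.41, -0.41, -0.42 and -0.41) and PAU1, PAU9 and PAU10 (-0.80, -0.80 and -0.79). Many further PAU genes were among the 345, such as PAU20 (-0.97) and PAU24 (-0.83). PAU24 also counts in the list of sterol uptake and anaerobic wall proteins below. Whether the probes of such a family read separate signals was not tested.

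The count of genes that passed rested on single arrays. Without vehicle control 3 it was 170 (2.92%), 82 higher (1.41%) and 88 lower (1.51%), and 165 of these were among the 538. It was 39, 48 and 2 without SoyGC-treated 1, 2 and 3, 387 and 22 without vehicle control 1 and 2, and 320, 278 and 289 without HenGC-treated 1, 2 and 3, which enter only the estimate of spread. With slide as a fixed block 187 genes passed, 64 higher (1.1%) and 123 lower (2.11%). Without SoyGC-treated 3 the 2 genes that passed were MAL12 and MAL32, so that every other call named below ended in that fit. MAL12 and MAL32 passed under all 26 alternatives, ADY2 and JEN1 under 25, DHR2, RCK1, STR3 and YOR186W under 24, and the 538 genes under a median of 14.

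**Figure D1:**
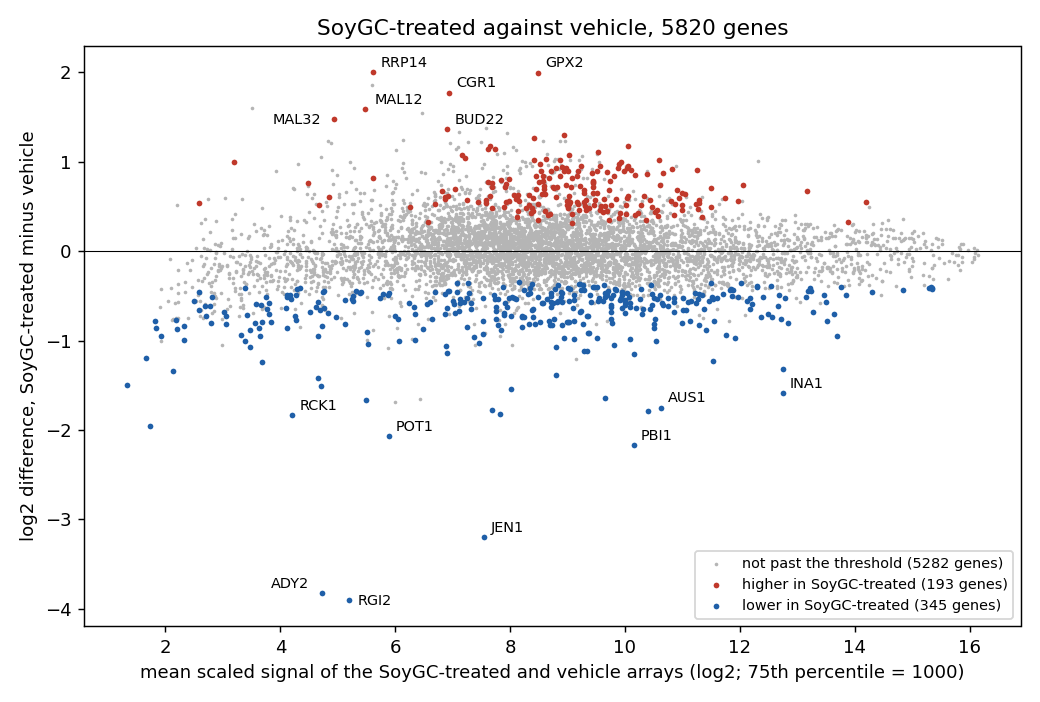
Each point is 1 of 5820 genes, with its mean scaled signal over the 6 arrays (log2) on the horizontal axis and its log2 difference, SoyGC-treated minus vehicle control, on the vertical axis. The 193 genes that passed upward are red and the 345 that passed downward blue, and RGI2, ADY2 and JEN1 lie farthest from 0, below -3.

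The group with the most genes higher in SoyGC-treated cells was the machinery that builds ribosomes. Of 67 tested factors for the small ribosomal subunit 29 rose and 0 fell, and of 77 factors for the large subunit 29 rose and 0 fell, against 3.32% of all genes rising. The median differences were 0.74 and 0.89, beside 0.00 for all genes, and 66 and 76 members had positive differences. Vehicle control 3 moved with these lists: its median was -0.64 and -0.94 relative to vehicle control 1 and 2. Without it, 11 and 13 members rose and the medians were 0.54 and 0.58. Small subunit factors that rose numbered 2, 3 and 0 (SoyGC-treated), 18, 14 and 16 (HenGC-treated) and 34, 1 and 11 (vehicle control) with replicate 1, 2 or 3 of that group left out. Large subunit factors that rose numbered 0, 1 and 0 (SoyGC-treated), 15, 14 and 11 (HenGC-treated) and 37, 0 and 13 (vehicle control) with replicate 1, 2 or 3 of that group left out. Within slide 1, which holds no vehicle control 3, the medians were 0.46 and 0.49. With slide as a fixed block 10 small and 9 large subunit factors rose, where 1.1% of all genes did.

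Among the small subunit factors, DHR2, an RNA helicase of the processome that cuts and folds the ribosomal RNA precursor, had scaled signals of 796, 685 and 854 in SoyGC-treated cells, against 342, 272 and 335 in vehicle control. The groups were far apart and the vehicle arrays, replicate 3 included, lay close together. DHR2 rose 2.46-fold (1.30 ± 0.16, adjusted p = 0.0123). RRP14, needed for the synthesis of both subunits, had 147, 69.6 and 91.8 in SoyGC-treated and 38.5, 29.3 and 13 in vehicle control. Its groups did not overlap, but the lowest value was that of vehicle control 3 and the highest that of SoyGC-treated 1, and the rise of 2.00 ± 0.46 (adjusted p = 0.0381) missed the threshold without vehicle control 3 (adjusted p = 0.0644). BUD22, needed for processing of small subunit RNA, had 198, 156 and 230.0 in SoyGC-treated and 115, 79.8 and 45.2 in vehicle control, a rise of 1.36 ± 0.33 (adjusted p = 0.0422, 0.0661 without vehicle control 3). HCA4, another helicase, rose by 1.00 ± 0.19, UTP23, a processome component, by 1.07 ± 0.21 and UTP6, of the same complex, by 0.96 ± 0.24. The first and second of these passed without vehicle control 3 and UTP6 did not (adjusted p = 0.0419, 0.0419 and 0.0649).

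Among the large subunit factors, RRP1 had scaled signals of 1550.0, 1549 and 1685 in SoyGC-treated and 906, 849 and 456 in vehicle control, and rose by 1.18 ± 0.24 (adjusted p = 0.0315). The SoyGC-treated arrays lay close together, and vehicle control 3 lay well below the other vehicle arrays. RRS1, which brings the 5S ribonucleoprotein into the particle, rose by 1.11 ± 0.26, and ARX1, a shuttling export factor, by 1.02 ± 0.19. These 3 passed also without vehicle control 3 (adjusted p = 0.0256, 0.0429 and 0.0343). CGR1, needed for processing of large subunit RNA, had 235, 179 and 280.1 in SoyGC-treated and 119.9, 80.1 and 30.7 in vehicle control and rose by 1.77 ± 0.46. The helicase DRS1 rose by 1.26 ± 0.34 and REX4, a putative exonuclease, by 1.14 ± 0.29. When vehicle control 3 was left out these last 3 missed the threshold (adjusted p = 0.0597, 0.0524 and 0.0517).

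Genes of RNA polymerases I and III, which transcribe ribosomal and transfer RNA, followed in smaller number. Of 41 genes 6 rose and 1 fell, where 3.32% and 5.93% of all genes did, with a median of 0.36 and 36 positive differences. RPC82 (0.72), RPC31 (0.57) and RPC17 (0.55), subunits of RNA polymerase III, and RPA49 (0.58), a subunit of RNA polymerase I, rose, and TFC3, of the factor that recruits polymerase III, fell (-0.38). The genes that rose numbered 0, 0 and 0 (SoyGC-treated), 2, 3 and 2 (HenGC-treated) and 6, 0 and 2 (vehicle control) with replicate 1, 2 or 3 of that group left out, and 2 with slide as a fixed block, when TFC3 did not pass. Of 137 cytosolic ribosomal protein genes 1 rose, RPL35B at 17308, 16667 and 16552 in SoyGC-treated and 13278, 14137 and 12993 in vehicle control (0.32 ± 0.08, adjusted p = 0.0468, 0.0925 without vehicle control 3). The list's median was 0.14 and 119 members had positive differences. Many of these genes are near-identical pairs, whose signals an array cannot always separate. Of 74 mitochondrial ribosomal protein genes MRPL27 and MRPL38 rose (0.56 and 0.41), and 71 had positive differences, with a median of 0.28 and of 0.19 without vehicle control 3, when 0 passed. In the fit with slide as a fixed block 0 genes of either ribosomal protein list passed. Of 53 genes of aminoacyl-tRNA synthetases and translation factors 0 passed, with a median of 0.08, and the member farthest from 0 was the initiation factor subunit TIF35 (0.52 ± 0.20, adjusted p = 0.134).

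**Figure D2:**
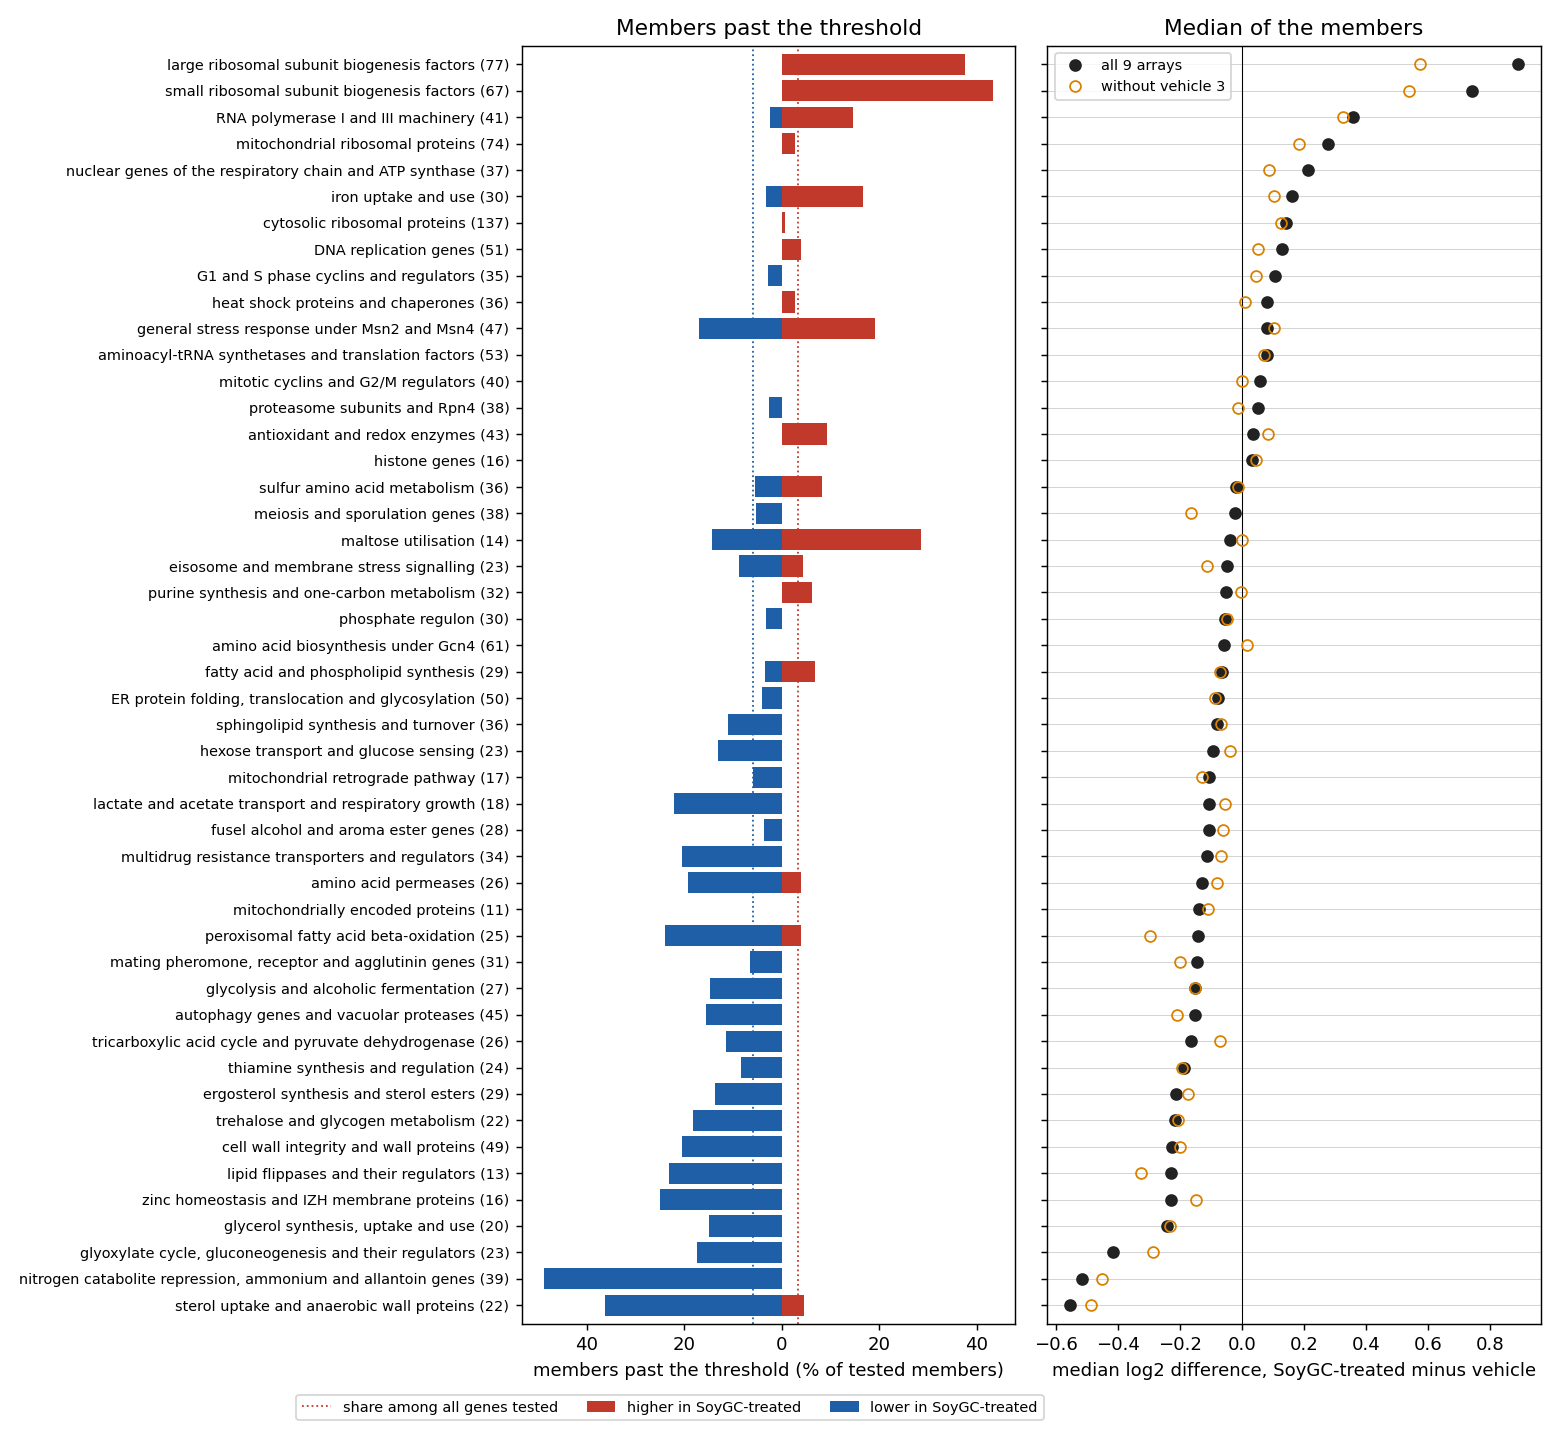
Left, for each gene list, the percentage of tested members (number in brackets) that passed upward (red) or downward (blue), with dotted lines at the shares of all genes tested, 3.32% and 5.93%. Right, the median log2 difference of the members over all 9 arrays (black) and without vehicle control 3 (open), from 0.89 for large subunit factors at the top to -0.55 for sterol uptake and anaerobic wall proteins at the bottom.

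The 3 genes with the deepest falls in SoyGC-treated cells were RGI2, ADY2 and JEN1, the last 2 transporters of acetate and lactate. RGI2, a gene of respiratory growth that is induced on carbon sources other than glucose, had scaled signals of 8.67, 11 and 8.83 in SoyGC-treated cells, against 152, 147 and 125 in vehicle control. Each group was tight and the groups were far apart, and RGI2 fell 14.9-fold (-3.90 ± 0.56, adjusted p = 0.015). ADY2, an acetate transporter, had 6.93, 8.28 and 5.96 in SoyGC-treated and 89.9, 118 and 91.4 in vehicle control and fell 14.2-fold (-3.82 ± 0.43, adjusted p = 0.00916). JEN1, the lactate and pyruvate permease, had 62.9, 67.6 and 54.8 in SoyGC-treated and 494, 492 and 741 in vehicle control and fell 9.18-fold (-3.20 ± 0.35, adjusted p = 0.00916). All 3 genes passed without vehicle control 3, and no array of one group came near the other group. The SoyGC-treated signals of RGI2 and ADY2 were weak, so that the size of their falls is less certain than the direction. Over the alternatives the difference ranged from -4.01 to -2.90 for RGI2, from -3.95 to -2.56 for ADY2 and from -3.30 to -2.92 for JEN1. ATO2, which is related to ADY2, fell by less (-0.69 ± 0.16, adjusted p = 0.0396, 0.0692 without vehicle control 3).

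Of 18 tested genes of lactate and acetate transport and respiratory growth, RGI2 included, 4 fell and 0 rose, where 5.93% of all genes fell, and the median was -0.10 with 9 members on each side of 0. The genes that fell numbered 2, 3 and 0 (SoyGC-treated), 4, 4 and 3 (HenGC-treated) and 3, 2 and 3 (vehicle control) with replicate 1, 2 or 3 of that group left out, and 3 with slide as a fixed block.

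Of 25 genes for the oxidation of fatty acids in the peroxisome 6 fell and 1 rose, where 5.93% and 3.32% of all genes did. POT1, the thiolase of the last step, had 28.3, 30.8 and 27.8 in SoyGC-treated and 100.4, 113 and 157 in vehicle control and fell 4.19-fold (-2.07 ± 0.34, adjusted p = 0.0212). The SoyGC-treated arrays were tight, and every one lay below the lowest vehicle array. POX1, the acyl-CoA oxidase of the first step, had 11, 8.43 and 6.23 in SoyGC-treated and 21.2, 18.7 and 19.3 in vehicle control and fell (-1.24 ± 0.29, adjusted p = 0.0393, 0.0683 without vehicle control 3). CIT2, the peroxisomal citrate synthase, and LPX1, a peroxisomal lipase, fell (-0.78 ± 0.13 and -0.71 ± 0.14). The 1 gene of the list that rose was PEX21 (0.64), an import receptor, and the median was -0.14. The members that fell numbered 1, 1 and 0 (SoyGC-treated), 5, 4 and 5 (HenGC-treated) and 4, 0 and 3 (vehicle control) with replicate 1, 2 or 3 of that group left out, and 4 with slide as a fixed block. PEX21 did not pass without vehicle control 3 or with the block.

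Of 23 genes of the glyoxylate cycle, gluconeogenesis and their regulators 4 fell and 0 rose, where 5.93% and 3.32% of all genes did, with a median of -0.41 and 17 negative differences. ACS1, the acetyl-CoA synthetase that glucose represses, had 175, 167 and 155 in SoyGC-treated and 278, 274 and 335 in vehicle control, groups that were each tight and did not overlap, and fell (-0.83 ± 0.11, adjusted p = 0.0123). ADR1, the activator of peroxisomal and ethanol genes, VID24, which marks gluconeogenic enzymes for breakdown, and UGA1, which takes part in the use of GABA, fell (-0.53 ± 0.11, -0.58 ± 0.14 and -0.54 ± 0.14). ACS1 passed without vehicle control 3 and the other 3 did not, and those that fell numbered 1, 1 and 0 (SoyGC-treated), 2, 2 and 7 (HenGC-treated) and 1, 1 and 1 (vehicle control) with replicate 1, 2 or 3 of that group left out. Core enzymes of these paths did not pass. FBP1, PCK1 and ICL1, looked up after their values were seen, had differences of -1.08 ± 0.41, -0.76 ± 0.31 and -0.92 ± 0.38 (adjusted p = 0.125, 0.157 and 0.156). The SoyGC-treated arrays of each lay below the vehicle arrays, as they did at 20.5% of all genes. HenGC-treated 3 lay far above the other HenGC-treated arrays, as in ICL1 with 196, 181 and 571. Whether that array bears on the missed threshold was not tested. With slide as a fixed block FBP1, PCK1 and ICL1 passed (adjusted p = 0.0396, 0.0388 and 0.0388). In that fit 5 genes of the list fell, ACS1 among them, and ADR1, VID24 and UGA1 did not pass.

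Of 27 genes of glycolysis and fermentation 4 fell and 0 rose, where 5.93% and 3.32% of all genes did. PFK27, which makes the activator of phosphofructokinase, had 142, 107 and 111 in SoyGC-treated and 223, 212 and 259 in vehicle control and fell (-0.95 ± 0.13, adjusted p = 0.0123). PFK2 and PFK1, the subunits of phosphofructokinase, and GCR1, the activator of glycolytic genes, fell (-0.68 ± 0.13, -0.49 ± 0.11 and -0.42 ± 0.10). With single arrays left out 0 to 4 fell, 1 without vehicle control 3, and 1 with slide as a fixed block. The glucose kinases GLK1 and HXK2 fell (-0.57 ± 0.14 and -0.46 ± 0.12) and the hexose transporter gene HXT9, which resembles other transporter genes closely, fell (-0.57 ± 0.13), 3 of 23 in the hexose list. MPC3, a subunit of the mitochondrial pyruvate carrier, and SDH3 and SDH1 of succinate dehydrogenase fell (-0.98 ± 0.23, -0.50 ± 0.11 and -0.43 ± 0.11), 3 of 26 in the tricarboxylic acid list. In these 2 lists 0 genes passed without vehicle control 3, and with slide as a fixed block 1 and 0 fell. Of 37 nuclear genes of the respiratory chain 0 passed, the median was 0.21 and 29 differences were positive, among them CYC1 at 1.01 ± 0.37 (adjusted p = 0.112). That list's median was 0.09 without vehicle control 3, 0.0047 within slide 1 and 0.33 within slide 3. Of 11 mitochondrially encoded genes 0 passed, with VAR1 at 1.6 ± 0.55 (adjusted p = 0.0981).

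Among maltose genes 4 of 14 rose and 2 fell, where 3.32% and 5.93% of all genes did. MAL12, a maltase, had scaled signals of 83.9, 91.2 and 61.1 in SoyGC-treated and 26.4, 27.2 and 23.8 in vehicle control and rose 3.01-fold (1.59 ± 0.18, adjusted p = 0.00916). MAL32, the maltase of another locus, had 54.2, 61.5 and 40.9 in SoyGC-treated and 19, 18.7 and 17.6 in vehicle control and rose 2.80-fold (1.48 ± 0.18, adjusted p = 0.0114). In both genes the vehicle arrays were tight and the lowest SoyGC-treated array was replicate 3. The 2 genes are near-identical, so that their signals cannot be assigned to one or the other with certainty. The maltose permeases MAL31 and MAL11, which lie beside them at the same loci, rose by 0.95 ± 0.20 and 0.62 ± 0.12. MAL33 and MAL13, the activator genes of these loci, had -0.13 ± 0.17 and -0.37 ± 0.12 and did not pass. The related permease genes MPH2 and MPH3, which are near-identical too, fell (-0.45 and -0.45). Leaving out vehicle control 3 ended the call of MAL31 (adjusted p = 0.0586). The genes that rose numbered 2, 2 and 2 (SoyGC-treated), 4, 4 and 4 (HenGC-treated) and 4, 2 and 3 (vehicle control) with replicate 1, 2 or 3 of that group left out, and 3 with slide as a fixed block. MPH2 and MPH3 passed in neither of the fits without vehicle control 3 and with the block.

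**Figure D3:**
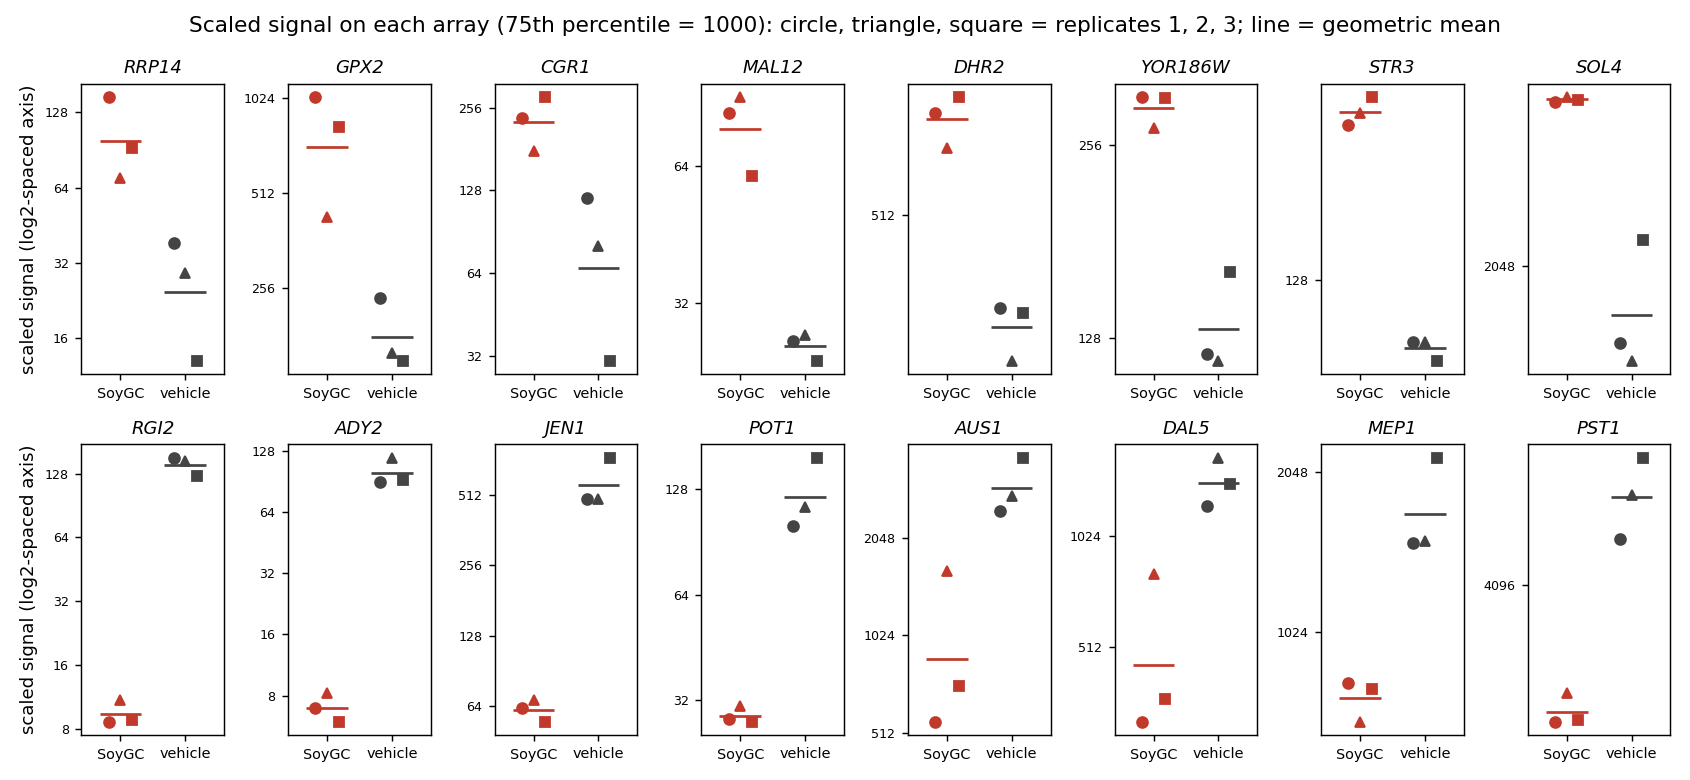
Scaled signal of 16 genes on each array (log2-spaced axes, each with its own range), SoyGC-treated left and vehicle control right. Circles, triangles and squares are replicates 1, 2 and 3, and lines are geometric means. RRP14 and CGR1 show vehicle control 3 far below the other vehicle arrays, and AUS1 and DAL5 show SoyGC-treated 2 above SoyGC-treated 1 and 3.

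Of 39 tested genes of nitrogen catabolite repression, ammonium uptake and allantoin use, 19 fell and 0 rose, where 5.93% of all genes fell. The median was -0.51 and 35 differences were negative. Vehicle control 3 lay at 0.11 on this list relative to vehicle control 1 and 2, and without it the median was -0.45. The members that fell numbered 2, 8 and 0 (SoyGC-treated), 14, 12 and 13 (HenGC-treated) and 10, 1 and 7 (vehicle control) with replicate 1, 2 or 3 of that group left out. With slide as a fixed block 6 fell, where 2.11% of all genes did.

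DAL5, the allantoate permease, had scaled signals of 320.2, 806 and 369 in SoyGC-treated and 1230.4, 1669 and 1414 in vehicle control and fell 3.12-fold (-1.64 ± 0.32, adjusted p = 0.0285). SoyGC-treated 2 lay above the other SoyGC-treated arrays and, as the choice of the gene required, below every vehicle array. UGA4, the GABA permease, had 113, 239 and 132 in SoyGC-treated and 384, 431 and 528 in vehicle control, with SoyGC-treated 2 again the highest of its group, and fell 2.91-fold (-1.54 ± 0.29, adjusted p = 0.0273). MEP1, an ammonium permease, had 819, 692 and 799 in SoyGC-treated and 1503, 1522 and 2184 in vehicle control and fell 2.23-fold (-1.15 ± 0.16, adjusted p = 0.0123). In MEP1 the SoyGC-treated arrays lay close together. OPT2, an oligopeptide transporter, fell (-1.23 ± 0.23), PUT1, the proline oxidase, fell (-1.06 ± 0.26), and DAL7, a malate synthase of allantoin use, fell (-1.12 ± 0.27). OPT2 passed without vehicle control 3 (adjusted p = 0.0475), and PUT1 and DAL7 did not (0.0741 and 0.085).

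The other members that fell included the permease genes DUR3 (-0.93), PTR2 (-0.86) and MEP2 (-0.76), the glutamate dehydrogenase genes GDH2 (-0.88) and GDH1 (-0.43) and the activator GAT1 (-0.51). The general amino acid permease GAP1 had 6483, 9231 and 5706 in SoyGC-treated and 10427, 11221 and 9425 in vehicle control and did not pass (-0.56 ± 0.17, adjusted p = 0.073). The allantoin genes lie next to each other in the genome. In the order of the gene table, DAL1, DAL4, DAL2, DCG1, DAL7 and DAL3 had differences of -0.68, -0.64, -0.41, -0.57, -1.12 and -0.49, of which DCG1 and DAL7 passed. They were set side by side after their values were seen.

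Of 26 genes of amino acid transport and its sensing 5 fell and 1 rose, where 5.93% and 3.32% of all genes did. Those that fell numbered 2, 1 and 0 (SoyGC-treated), 4, 4 and 4 (HenGC-treated) and 5, 0 and 4 (vehicle control) with replicate 1, 2 or 3 of that group left out, and 4 with slide as a fixed block, when MUP3 did not pass. DIP5, a permease for acidic amino acids, had 571, 762 and 557 in SoyGC-treated and 1399.8, 1487 and 1037 in vehicle control and fell 2.07-fold (-1.05 ± 0.16, adjusted p = 0.0197). The arginine permease CAN1 fell (-0.73 ± 0.12) and the permease gene BIO5, which takes up a biotin precursor, fell (-0.82 ± 0.14). MUP3, a low-affinity methionine permease, rose by 0.79 ± 0.15. Of 61 amino acid synthesis genes under the activator Gcn4, 0 passed and the median was -0.06, with ARO7 farthest from 0 at 0.60 ± 0.26 (adjusted p = 0.171). In sulfur metabolism 3 of 36 rose and 2 fell, and 0 to 3 rose with single arrays left out. Without vehicle control 3 2 rose and 0 fell, and with slide as a fixed block 1 and 0. STR3, a cystathionine lyase that takes part in methionine synthesis, had 206, 214 and 224 in SoyGC-treated and 106, 106 and 100 in vehicle control, both groups tight, and rose 2.06-fold (1.05 ± 0.10, adjusted p = 0.00916). MET28, which helps activate sulfur genes, rose by 0.59 ± 0.13, and SEO1, a putative permease, fell (-0.77 ± 0.17). Of 20 genes of glycerol synthesis and use, GPD1, the enzyme that commits carbon to glycerol, and GUP1 fell (-0.71 ± 0.12 and -0.37 ± 0.08), as did RCK1, described below. Of these 3 genes 2 passed without vehicle control 3 and 2 with slide as a fixed block.

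Of 22 genes of sterol uptake and anaerobic wall proteins 8 fell and 1 rose, where 5.93% and 3.32% of all genes did, with a median of -0.55, and 19 differences were negative. Vehicle control 3 lay at 0.25 on the list relative to vehicle control 1 and 2, and without it the median was -0.48. The members that fell numbered 0, 0 and 0 (SoyGC-treated), 9, 4 and 3 (HenGC-treated) and 5, 0 and 0 (vehicle control) with replicate 1, 2 or 3 of that group left out. With slide as a fixed block 0 fell and 0 rose (adjusted p = 0.0875 for AUS1 and 0.0799 for HEM13). AUS1 and PDR11 are the transporters that take up sterols when oxygen is absent. AUS1 had 556, 1614 and 718 in SoyGC-treated and 2474, 2753 and 3609 in vehicle control. PDR11 had 92, 189 and 100 in SoyGC-treated and 356, 385 and 559 in vehicle control. In both, SoyGC-treated 2 was the highest of its group and, as the choice of the genes required, lay below every vehicle array. AUS1 fell 3.37-fold (-1.75 ± 0.46, adjusted p = 0.0485, 0.104 without vehicle control 3) and PDR11 3.53-fold (-1.82 ± 0.40, adjusted p = 0.0349, 0.0683 without it). DAN4, an anaerobic mannoprotein of the wall, and HEM13, a heme synthesis gene induced at low oxygen, fell (-1.38 ± 0.30 and -1.32 ± 0.32). CYC7, the cytochrome c isoform of low oxygen, rose by 0.68 ± 0.15. UPC2, the activator of sterol uptake genes, had 150.4, 198 and 148 in SoyGC-treated and 276, 326 and 349.9 in vehicle control and did not pass (-0.94 ± 0.28, adjusted p = 0.0686). PBI1, a gene of unclear role, had 475, 739 and 441 in SoyGC-treated and 1654, 2858 and 2962 in vehicle control and fell 4.49-fold (-2.17 ± 0.50, adjusted p = 0.0381, 0.0753 without vehicle control 3).

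Ergosterol is the sterol of yeast membranes. Of 29 genes of its synthesis and storage 4 fell and 0 rose, where 5.93% and 3.32% of all genes did, with a median of -0.21 and 24 negative differences. ARE1, which stores sterol as esters, fell (-0.82 ± 0.20), HMG2, an isoform of HMG-CoA reductase, fell (-0.74 ± 0.15), and the late enzymes ERG4 and ERG24 fell (-0.53 ± 0.13 and -0.52 ± 0.10). With single arrays left out 0 to 3 fell, and 0 without vehicle control 3 or with slide as a fixed block. IZH4 and IZH3, membrane proteins tied to zinc and sterol metabolism, fell (-1.78 ± 0.46 and -0.65 ± 0.14), and ZPS1 and ZRG8, genes induced by low zinc, fell (-0.62 ± 0.13 and -0.59 ± 0.13), 4 of 16 in the zinc list, 0 without vehicle control 3 and 2 with the block. IZH4 had 465, 1355 and 619 in SoyGC-treated and 2407, 2642 and 2496 in vehicle control, with SoyGC-treated 2 again the highest of its group. Of 34 multidrug resistance genes 7 fell and 0 rose, AUS1 and PDR11 among them, with TPO3, a polyamine exporter, and RTA1, a relative of RSB1, at -0.64 ± 0.13 and -0.64 ± 0.12, and 0 passed without vehicle control 3 and 1 with the block. In fatty acid and phospholipid synthesis 2 of 29 rose, the CDP-diacylglycerol synthase CDS1 (0.41) and OPI1 (0.58), the repressor of phospholipid genes, and the phosphatidylinositol synthase PIS1 fell (-0.49). These 3 passed in neither fit (adjusted p = 0.0857, 0.0503 and 0.0836 without vehicle control 3), and 0 genes of the list rose when any 1 SoyGC-treated array or vehicle control 2 or 3 was left out.

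Sphingolipids are the lipid class of the series' title. Of 36 genes of sphingolipid synthesis and turnover 4 fell (11.1%) and 0 rose, where 5.93% and 3.32% of all genes did. In either direction 9.24% of all genes passed. The median was -0.08 and 27 differences were negative. YSR3, a phosphatase of long-chain base phosphates, had scaled signals of 164, 186 and 157 in SoyGC-treated and 249, 319 and 377 in vehicle control and fell (-0.88 ± 0.22, adjusted p = 0.0422). ISC1, which splits inositol phosphosphingolipids back to ceramide, had 869, 898 and 745 in SoyGC-treated and 1171, 1274 and 1352 in vehicle control and fell (-0.60 ± 0.14, adjusted p = 0.0392). The groups of both genes did not overlap, and the distance between them was under 2-fold. PHS1, the dehydratase of very long chain fatty acid elongation, and SUR2, the hydroxylase that makes phytosphingosine, fell (-0.58 ± 0.14 and -0.55 ± 0.14, adjusted p = 0.0392 and 0.0458). Vehicle control 3 lay at 0.16 on the list, relative to vehicle control 1 and 2, and without it all 4 missed the threshold (adjusted p = 0.0868, 0.0781, 0.0619 and 0.0949). The members that fell numbered 0, 0 and 0 (SoyGC-treated), 2, 3 and 0 (HenGC-treated) and 2, 0 and 0 (vehicle control) with replicate 1, 2 or 3 of that group left out, and 1 with slide as a fixed block.

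The first enzyme of the pathway, serine palmitoyltransferase, showed small differences: its subunit LCB1 had 1546, 1417 and 1593 in SoyGC-treated and 1448, 1475 and 1718 in vehicle control (-0.02 ± 0.10). ORM2 and ORM1, which restrain that enzyme, had -0.51 ± 0.18 and -0.31 ± 0.10 (adjusted p = 0.0994 and 0.0871). TSC10, the reductase of the second step, had -0.37 ± 0.11 (adjusted p = 0.071). Of the ceramide synthase subunits LAC1 had -0.38 ± 0.10 (adjusted p = 0.0512), LAG1 0.04 ± 0.11 and LIP1 -0.11 ± 0.14. The ceramide hydroxylase gene SCS7 had -0.01 ± 0.12. Among the enzymes that add head groups AUR1 had -0.04 ± 0.12, IPT1 -0.03 ± 0.13 and SUR1 -0.45 ± 0.14 (adjusted p = 0.0756). The ceramidase YPC1 had the most positive difference, with 723, 719 and 554 in SoyGC-treated and 436, 462 and 501 in vehicle control, groups that did not overlap, and did not pass (0.50 ± 0.16, adjusted p = 0.0774). The long-chain base kinase LCB4 had 0.14 ± 0.10 and the long-chain base phosphate lyase DPL1 -0.12 ± 0.10. RSB1, a membrane protein that exports long-chain bases, had 183, 131 and 168 in SoyGC-treated and 145, 133 and 254 in vehicle control, which overlapped (-0.09 ± 0.26).

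**Figure D4:**
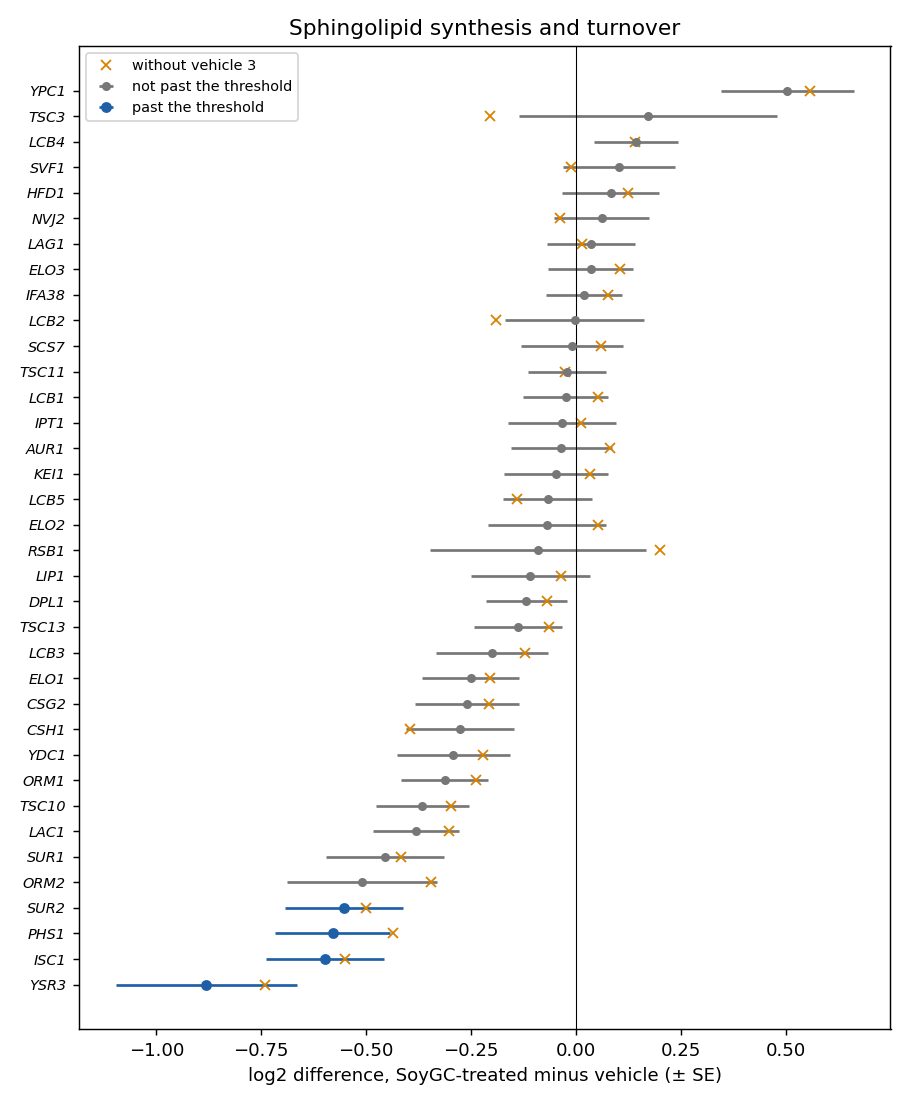
Log2 difference, SoyGC-treated minus vehicle control, of 36 sphingolipid genes with its SE (n = 3 per group), ordered by size. Blue genes passed the threshold, grey genes did not, and crosses give the difference without vehicle control 3. YSR3, ISC1, PHS1 and SUR2 at the bottom are the 4 that passed, and YPC1 at 0.50 is the most positive.

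Eisosomes are furrows of the plasma membrane that respond to sphingolipids. Of 23 genes of eisosomes and the signalling attached to them 2 fell and 1 rose, where 5.93% and 3.32% of all genes did. FHN1, a homologue of the eisosome protein Nce102, had 93.4, 159.6 and 93.1 in SoyGC-treated and 283, 419 and 469 in vehicle control and fell 3.42-fold (-1.77 ± 0.44, adjusted p = 0.0422, 0.086 without vehicle control 3). FMP45, of the Sur7 family of eisosome proteins, fell (-0.63 ± 0.17). MDG1, which rose by 0.80 ± 0.18, is a plasma membrane protein first known from mating signalling and no core eisosome component. Of 13 genes of lipid flippases and their regulators 3 fell and 0 rose: the flippases DNF2 and NEO1 (-0.51 ± 0.11 and -0.58 ± 0.13) and RTA1. After vehicle control 3 was left out 0 flippase genes passed, and MDG1 was the 1 eisosome gene. Slide as a fixed block left 0 genes of either list that passed.

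Of 49 cell wall genes 10 fell and 0 rose, where 5.93% and 3.32% of all genes did, 42 differences were negative and the median was -0.23. PST1, a wall protein induced when the wall is damaged, had scaled signals of 2666, 2915 and 2683 in SoyGC-treated and 4734, 5435 and 6114 in vehicle control and fell 1.96-fold (-0.97 ± 0.13, adjusted p = 0.0123). The SoyGC-treated arrays were tight and all lay well below the lowest vehicle array. TIP1, a cold-shock mannoprotein, fell (-0.80 ± 0.16), YPS1, a protease at the cell surface, fell (-0.76 ± 0.12), PIR3, a wall protein, fell (-0.61 ± 0.16), and the flocculins FLO11 and FLO1 fell (-0.76 ± 0.14 and -0.72 ± 0.13). FKS1 and GSC2, the glucan synthase genes, fell as well (-0.35 and -0.51). Vehicle control 3 lay at 0.20 on this list relative to vehicle control 1 and 2, and without it the median was -0.20. The members that fell numbered 2, 1 and 0 (SoyGC-treated), 6, 6 and 6 (HenGC-treated) and 6, 0 and 6 (vehicle control) with replicate 1, 2 or 3 of that group left out, and 4 with slide as a fixed block. In the endoplasmic reticulum list PMT3 and ALG6, which add sugars to proteins, fell (-0.81 and -0.42), 2 of 50, and 0 without vehicle control 3 or with the block.

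Stress genes passed in both directions. Of 47 genes of the general stress response under the activators Msn2 and Msn4, 9 rose and 8 fell, where 3.32% and 5.93% of all genes did, with a median of 0.08. SOL4, a lactonase of the pentose phosphate path, had 3304, 3350.3 and 3322 in SoyGC-treated and 1633, 1552 and 2205 in vehicle control and rose 1.87-fold (0.91 ± 0.14, adjusted p = 0.0182). RTN2, of the endoplasmic reticulum membrane, and CYC7 rose by 0.84 ± 0.17 and 0.68 ± 0.15. RCK1, a protein kinase of the oxidative stress response, had 8.98, 11.8 and 8.87 in SoyGC-treated and 37.3, 27.7 and 41.3 in vehicle control and fell 3.57-fold (-1.83 ± 0.22, adjusted p = 0.0114), and XBP1, a repressor active in starved cells, had 100.2, 79 and 66.4 in SoyGC-treated and 169, 171 and 194 in vehicle control and fell 2.20-fold (-1.14 ± 0.15, adjusted p = 0.0123). In these last 2 genes and in SOL4 the arrays of a group lay close together relative to the distance between groups. The signals of RCK1 were weak, and over the alternatives its difference ranged from -2.00 to -1.08. PHM7, a membrane protein, fell (-0.93 ± 0.19). Those that rose numbered 0, 0 and 0 (SoyGC-treated), 9, 9 and 9 (HenGC-treated) and 6, 0 and 7 (vehicle control) with replicate 1, 2 or 3 of that group left out. Those that fell numbered 2, 2 and 0 (SoyGC-treated), 4, 4 and 6 (HenGC-treated) and 5, 3 and 3 (vehicle control) with replicate 1, 2 or 3 of that group left out. With slide as a fixed block 5 rose and 3 fell.

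Among antioxidant enzymes 4 of 43 rose and 0 fell, where 3.32% and 5.93% of all genes did. With single arrays left out 0 to 4 rose, 2 without vehicle control 3, and 2 with slide as a fixed block. GPX2, a glutathione peroxidase, had 1029, 430.4 and 829.5 in SoyGC-treated and 239, 159.9 and 151 in vehicle control and rose 3.99-fold (2.00 ± 0.45, adjusted p = 0.0363, 0.0704 without vehicle control 3). Its SoyGC-treated arrays were spread over more than 2-fold, and the lowest lay above every vehicle array, as the choice of the gene required. MXR1, which repairs oxidised methionine, had 351, 353 and 352 in SoyGC-treated and 238, 217 and 227 in vehicle control, both tight, and rose by 0.63 ± 0.12 (adjusted p = 0.0285). GPX1 and the mitochondrial peroxiredoxin PRX1 rose by 0.63 ± 0.14 and 0.50 ± 0.11. Of 36 heat shock genes and chaperones HSP31 rose (0.60 ± 0.13) and 0 fell, and HSP31 did not pass with the block. Trehalose, a sugar stored against stress, is made by the complex of TPS1, TPS2 and TPS3, and these fell (-0.65 ± 0.15, -0.56 ± 0.13 and -0.48 ± 0.11). Together with GAC1, which steers glycogen synthesis (-0.68 ± 0.13), they made 4 of 22 genes of trehalose and glycogen metabolism to fall, with 0 that rose, and GAC1 was the 1 that fell without vehicle control 3 (adjusted p = 0.0475), while with the block TPS1 was.

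Autophagy and vacuolar protease genes included 7 of 45 that fell and 0 that rose, where 5.93% and 3.32% of all genes did, with a median of -0.15. Those that fell numbered 2, 1 and 0 (SoyGC-treated), 5, 5 and 6 (HenGC-treated) and 5, 0 and 3 (vehicle control) with replicate 1, 2 or 3 of that group left out, and 2 with slide as a fixed block. ATG15, the lipase that opens autophagic bodies, had 20.7, 20.7 and 18.1 in SoyGC-treated and 31.1, 35.8 and 39.7 in vehicle control and fell 1.79-fold (-0.84 ± 0.12, adjusted p = 0.0146). ATG32, the receptor for mitochondria, and the protease PRB1 fell (-0.53 ± 0.10 and -0.60 ± 0.13). Iron uptake and use had 5 of 30 genes that rose and 1 that fell, with ISU2, a scaffold for iron-sulfur clusters, at 0.89 ± 0.16, and the uptake genes FRE1, ENB1 and FTR1 at 0.67 ± 0.15, 0.54 ± 0.13 and 0.52 ± 0.12. Of this list 0 to 4 rose with single arrays left out, 2 without vehicle control 3, and 2 with the block. In purine and one-carbon metabolism 2 of 32 rose. AAH1, the adenine deaminase, had 2439, 2047 and 2129 in SoyGC-treated and 1279, 1070.5 and 1272 in vehicle control and rose 1.83-fold (0.87 ± 0.13, adjusted p = 0.0165), and GCV1, of the glycine cleavage system, rose by 0.65 ± 0.17 and missed the threshold without vehicle control 3 (adjusted p = 0.0769) and with the block (adjusted p = 0.0747). THI4 and THI2, of thiamine synthesis and its regulation, fell (-0.75 ± 0.13 and -0.47 ± 0.12), 2 of 24. The gene THI4 passed with the block and THI2 did not (adjusted p = 0.0474 and 0.0691).

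In each of the remaining lists at most 2 genes passed, where 5.93% of all genes fell and 3.32% rose. Of 38 meiosis genes OSW2, of the spore wall, and RIM4, a regulator of translation in meiosis, fell (-0.58 and -0.57). Of 31 mating genes SAG1, the alpha-agglutinin, and MFA2, an a-factor gene, fell (-0.78 and -0.68). Of 35 genes of G1 and S phase RNR3, the damage-induced subunit of ribonucleotide reductase, fell (-0.82), and of 51 replication genes DPB4, of DNA polymerase epsilon, and RFC3, of the clamp loader, rose (0.52 and 0.32). Of 40 mitotic regulators and 16 histone genes 0 passed, with MYO1 at 0.78 ± 0.40 and CSE4 at 0.57 ± 0.40 farthest from 0. In both of these genes vehicle control 3 lay far below the other 8 arrays, as in MYO1 with 53.3, 45.1 and 49.7 in SoyGC-treated and 49.1, 36.5 and 13.2 in vehicle control, and without it the differences were 0.22 and 0.04. Of 38 proteasome genes UBI4, polyubiquitin, fell (-0.42), of 30 phosphate genes PHM8 (-0.85), and of 28 fusel alcohol genes ESBP6 (-0.44). CIT2 was the 1 of 17 retrograde genes that passed. Of the genes named here SAG1, PHM8 and CIT2 passed also without vehicle control 3 (adjusted p = 0.0404 each), when so did 0 genes of the meiosis, G1 and S phase, replication, proteasome and fusel alcohol lists. In the fit with slide as a fixed block SAG1, PHM8, CIT2 and OSW2 passed.

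**Figure D5:**
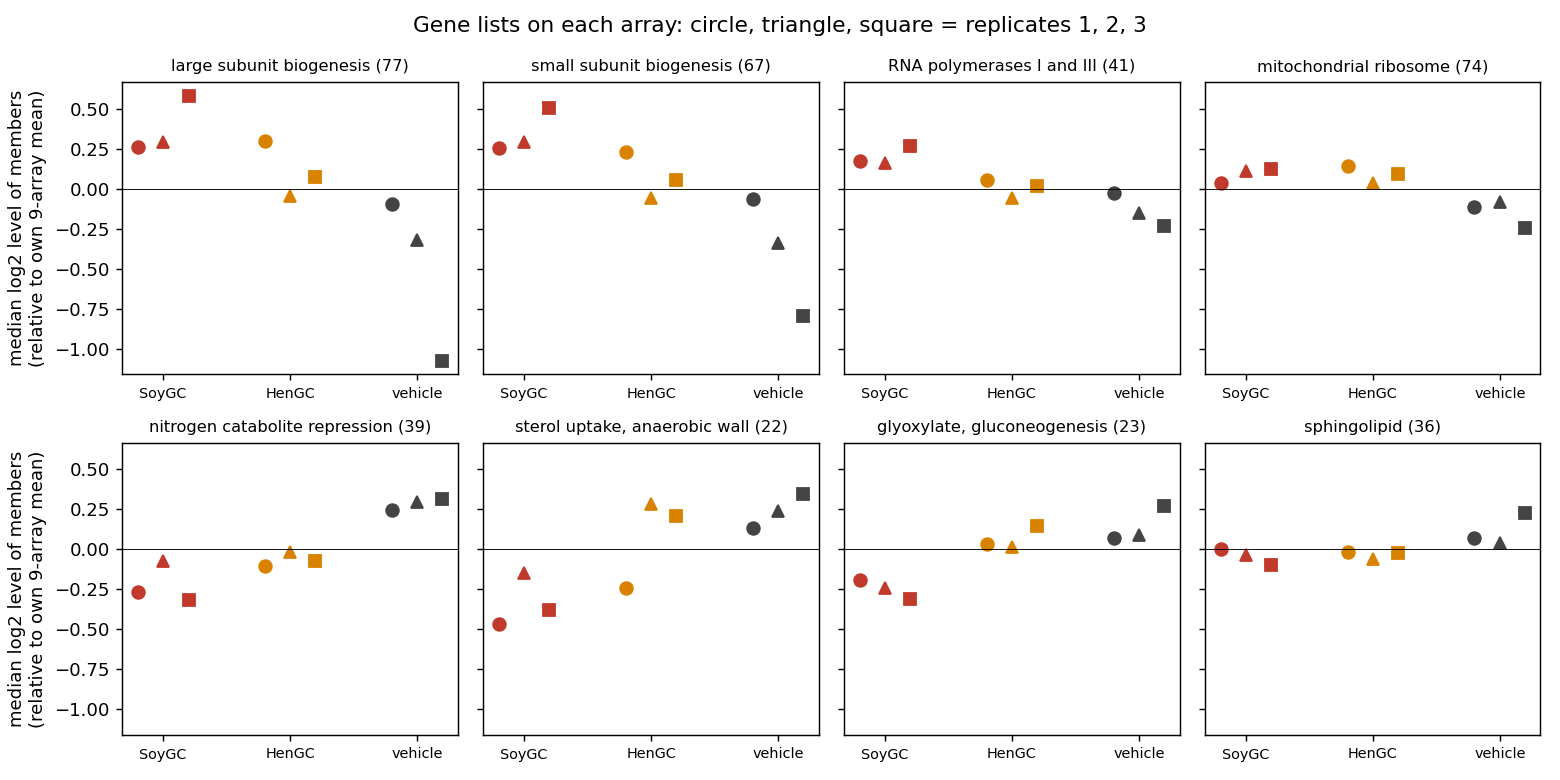
For 8 gene lists (tested members in brackets), the median over members of each array's log2 level relative to the gene's own mean over 9 arrays. Circles, triangles and squares are replicates 1, 2 and 3. On the ribosome biogenesis lists vehicle control 3 lies at -1.08 and -0.80, below vehicle control 1 and 2, and on the nitrogen list the 3 vehicle arrays lie together between 0.25 and 0.32.

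Of the 538 genes that passed, 220 were in a list and 318 in none, where 1660 of all 5820 genes tested were in a list. YOR186W, a gene of unknown function, had 305, 273 and 303 in SoyGC-treated and 121, 118 and 163 in vehicle control and rose 2.21-fold (1.15 ± 0.13, adjusted p = 0.00916). CSR2, a regulator of transporter uptake into the cell, rose by 1.08 ± 0.19, and YLR108C, uncharacterised, by 1.17 ± 0.29. INA1, a membrane protein, had 3033, 7062 and 2919 in SoyGC-treated and 10996, 11929.8 and 12905 in vehicle control and fell 3.00-fold (-1.59 ± 0.39, adjusted p = 0.0419, 0.0792 without vehicle control 3). YML083C fell (-1.66 ± 0.34, adjusted p = 0.0306, 0.0586 without vehicle control 3). No SoyGC-treated array measured YOR008C-A well above background, and its level there was at least 1.56-fold lower. The adjusted p of YOR008C-A was 0.0296, and 0.0563 without vehicle control 3. It belongs to the difference as measured and not to that bound. Picked after their values were seen because they passed under at least 23 of 26 alternatives, RTS3, YER158C, BAG7, FAT3 and YMR052C-A had differences between -1.12 and -0.99. YER158C, for one, had 422, 439.7 and 407 in SoyGC-treated and 844, 886 and 1033 in vehicle control. In each of these 5 the groups did not overlap, which the choice made likely and which held at 34.2% of all genes.

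In the direct comparison of SoyGC-treated with HenGC-treated, 0 of 5820 genes (0%) passed in limma's test, the smallest adjusted p was 0.241, and 736 genes (12.6%) had an unadjusted p under 0.05. With array weights 21 genes passed. HenGC-treated 1 and 2 lay on slide 2, which held no SoyGC-treated or vehicle array. For these arrays a difference between groups cannot be told apart from one between slides. The differences of either preparation from vehicle share the 3 vehicle arrays, so that they are given side by side and not compared. The 193 genes that rose in SoyGC-treated had a median of 0.63 there and of 0.39 in HenGC-treated, both against vehicle, and the 345 that fell had -0.60 and -0.38. These genes, like JEN1, ADY2, RGI2 and MAL12 below, were chosen by their SoyGC-treated differences. That choice favours larger differences in SoyGC-treated, so the medians do not show a weaker effect in HenGC-treated. The medians of the small and large ribosomal subunit factors were 0.74 and 0.89 in SoyGC-treated and 0.52 and 0.64 in HenGC-treated. The nitrogen list had medians of -0.51 in SoyGC-treated and -0.31 in HenGC-treated, the sterol uptake list -0.55 and -0.20, and the general stress list 0.08 and 0.41. JEN1 had 62.9, 67.6 and 54.8 in SoyGC-treated, 311, 102 and 196 in HenGC-treated and 494, 492 and 741 in vehicle control. ADY2 had 6.93, 8.28 and 5.96 in SoyGC-treated, 63.7, 14.8 and 26.1 in HenGC-treated and 89.9, 118 and 91.4 in vehicle control. In both genes the HenGC-treated arrays spread over more than 3-fold. The SoyGC-treated minus HenGC-treated differences were -1.58 and -2.06 and did not pass (adjusted p = 0.241 for each in limma's test). RGI2 had 8.67, 11 and 8.83 in SoyGC-treated, 179, 57.6 and 25.5 in HenGC-treated and 152, 147 and 125 in vehicle control, so that the HenGC-treated range spanned that of the vehicle. MAL12 had 83.9, 91.2 and 61.1 in SoyGC-treated, 73.8, 100.5 and 73.4 in HenGC-treated and 26.4, 27.2 and 23.8 in vehicle control, and the treated groups overlapped.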

How the data were processed

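Total RNA of 9 samples was labelled with Cy3 and hybridised to 1-colour Agilent yeast arrays. The deposited scanner files hold processed signal intensity values, background-subtracted within each array. The software named was Agilent Feature Extraction 11.0.1.1, and the further tool was R 3.0.2, per the submitters' processing notes. The values in the authors' deposited table were linear means of the same intensity values per probe, without scaling between arrays (tolerance 1e-06). Quality flags in the same columns are software calls, per the file headers. 0 columns of per-sample values were left unused.

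Control and outlier spots were dropped, the spots of each of 6256 probes were averaged, and log2 values were set relative to each array's 75th percentile. A probe was kept if over 50% of its spots lay well above background on each of the 3 arrays of any group. The brightest kept probe of each gene was tested in limma 3.58.1 (R 4.3.3) on all 9 arrays, with p-values adjusted over 5820 genes. Standard errors came from limma's moderated variance. The code was tested on simulated data. RefSeq names (assembly R64) matched 5765 of the probes, and genes without a match kept the array's name. No coordinate is given, since the files' build is older. The number of arrays limits the precision.

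The genes named were the 15 with the largest rise and the 15 with the largest fall whose groups did not overlap, up to 4 members that passed in each list (up to 6 where 10 or more passed, or the member farthest from 0 where none did), all sphingolipid genes and the strain markers. STE2, TFC3, PEX21, MAL13, MAL33, MPH2, MPH3, DUR3, PTR2, MEP2, GDH1, GDH2, GAT1, GAP1, UPC2, FKS1, GSC2 and the ASP3 and PAU genes were named after their values were seen. The comparison, the lists and their members were chosen with earlier results of these data known, and the name pattern for ribosomal proteins was corrected after values were seen. Alternatives covered normalization, background correction, the filter on dim probes, the authors' table, blocks for slide, scan day and replicate number, array weights, the variance model and left-out arrays. Normexp used median signals, since mean signals are not in the columns used here.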

Additional observations from a re-analysis of the deposited data

How the results depend on the processing

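Beside the 538 genes that passed, quantile normalization gave 387, each array's median 315, normexp 478, no filter on dim probes 450, the filter on all 9 arrays 522, an intensity trend with robust settings 565, the mean over probes 532 and slide as a random block 638. No alternative turned the direction of a named gene that passed. Larger moves came from the authors' unscaled table (8 genes), slide as a fixed block (187), array weights (1243), the 6 arrays of both groups alone (50) and slide 1 alone (35). Chosen after seeing the data, scan day as a block gave 743, the 6 arrays with slide as a block 15, and the 6 arrays with array weights 1234. Leaving out 1 array gave 2 to 387 genes. The cause of these moves was not tested, save that fewer arrays leave fewer degrees of freedom. Of 137 named genes that passed, 52 passed without vehicle control 3, 49 with slide as a fixed block and 19 in slide 1 alone. For SoyGC-treated against HenGC-treated, array weights gave 21 genes and no filter on dim probes 1 (YLR311C), and every left-out array gave 0.

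The arrays did not show a pairing of the samples by replicate number, but the check used cannot exclude one. A group's deviations cancel out within each gene, so that the correlations depend on one another. Deviations from the group means of same-numbered SoyGC-treated and vehicle arrays correlated at -0.65, 0.43 and -0.45 for numbers 1, 2 and 3, and 1 of the 3 pairs had each array correlating best with its own number. With the replicate block 587 genes passed, 217 higher and 370 lower, and 437 of them were among the 538. A search of promoters for motifs was not run, since no promoter sequences were used here. Signals near background limit 4 of the genes that fell to a lower bound.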

Other observations

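SoyGC-treated 2 lay above SoyGC-treated 1 and 3 for several of the genes that fell. AUS1 had 556, 1614 and 718 in SoyGC-treated 1, 2 and 3, INA1 3033, 7062 and 2919, IZH4 465, 1355 and 619, DAL5 320.2, 806 and 369 and UGA4 113, 239 and 132. In each the value of SoyGC-treated 2 was below the lowest vehicle array, which was set by the choice, since these genes were picked from those whose groups did not overlap. HenGC-treated 2, on another slide, lay at 2725 for AUS1 and 12762 for INA1, where HenGC-treated 1 lay at 943 and 5200.4 and HenGC-treated 3 at 2264 and 8989.7.

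Signal strength and calls went together unevenly. With the 5820 genes ordered by mean signal into 4 bins of 1455, 19, 42, 88 and 44 genes rose in the bins from weakest to strongest, and 109, 52, 91 and 93 fell. The median standard error of the log2 difference was 0.158 in the weakest bin and 0.118 in the strongest.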
